A study of Mus musculus with 6 samples.

Results

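The genes described here make, regulate, take up, move and sulfate cholesterol. They form a list of 32 named genes, chosen by their function, though with earlier results of these data known. A gene was described where a probe named for it was detected on 3 or more of the 6 arrays. A probe was counted as detected where its detection score, the share of negative control beads that it exceeded, was above 0.95. A named probe was present for 29 of the 32 genes and 28 passed the filter, of 10976 genes that passed in all. Soat1, which esterifies cholesterol for storage, was detected on 1 array and not kept. Acat2 and Hmgcs1, of the first steps, and Fdft1, the squalene synthase, were not analysed here for want of a named probe.

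Total RNA of back-skin epidermis was measured on Illumina bead arrays in 3 embryos of a Harlequin Ichthyosis model and in 3 wild-type embryos, all of the C57BL6 strain at E17.5, shortly before birth. The labels name neither the mutated gene nor the allele. The epidermis had been separated from the dermis with EDTA. Sample titles carry a prefix that the labels do not explain, bo20 for arrays 1 and 2 of each group and bo12 for array 3 of each group. Levels below are log2 intensities after background correction and quantile normalization, and differences are mutant minus wild type on that log2 scale.

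Cells build cholesterol from acetyl-CoA by way of mevalonate, isoprenoid diphosphates and squalene, which is closed to lanosterol and then trimmed to cholesterol. SREBP-2, the product of Srebf2, switches on most of these enzymes when the sterol level in the endoplasmic reticulum drops; SCAP escorts it to the Golgi and INSIG proteins hold the complex back when sterols are plentiful. In the epidermis cholesterol is a main lipid of the stratum corneum, along with ceramides and free fatty acids, and its sulfate helps to govern the shedding of corneocytes. Inherited defects in NSDHL and EBP cause scaly skin in humans.

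One array, wild-type array 3, was unlike the rest. Across kept probes, which are not independent, its Pearson's r with each of the others was 0.836 to 0.891, against 0.965 to 0.990 among the remaining arrays. Differences that moved most on leaving it out are therefore also given without it. Keratinocyte markers were well detected: all 6 basal markers and 6 of 7 suprabasal markers were kept, with mean log2 levels of 10.89 to 10.99 in mutant and 10.87 to 11.38 in wild-type arrays for the basal list. Dermal fibroblast (7 of 7 kept) and skeletal muscle markers (6 of 6 kept) were also present. The mean level of the fibroblast list was 10.91 to 11.67 in mutant arrays and 8.93 to 11.39 in wild-type arrays, and that of the muscle list 12.44 to 13.35 in mutant and 10.90 to 13.19 in wild-type arrays. The lowest mean level of both lists came from wild-type array 3, as did those of the basal and suprabasal lists and of the macrophage list given next. In these last lists not all genes were lowest on that array, as given below. Macrophage and Langerhans cell markers (6 of 7 kept, Cd207 not kept) had mean levels of 7.91 to 8.27 in mutant and 7.03 to 7.63 in wild-type arrays. The part of these cells in the results below was not tested, and in such bulk RNA fewer cells of a type and less RNA per cell cannot be told apart.

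The comparison asks whether these genes are expressed differently in the mutant epidermis. None of the 28 cholesterol genes passed an adjusted p of 0.05 between mutant and wild-type epidermis. The test was limma's moderated test with Benjamini-Hochberg adjustment over all 18358 kept probes, of which 0% passed and 1077 (5.87%) had an unadjusted p under 0.05. Among the 28 genes 0 had an unadjusted p under 0.05, each gene being read by its brightest kept probe, while 2.62% of all genes were higher and 3.81% lower at that level. The differences were mostly positive and ran from -0.50 to 1.28. Of the 28 genes 21 lay above 0 and 7 below, with a median of 0.27. Over all 10976 genes the median was -0.06, and 44.4% lay above 0. Over all 43 kept probes of the 28 genes, 4 had an unadjusted p under 0.05 and the smallest adjusted p was 0.539. With each array scaled by its median in place of quantile normalization, all 28 differences lay above 0, but the median of all genes then stood at 0.43, and the cholesterol genes at 0.35 above it.

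Most of the positive differences belonged to the synthesis enzymes, of which 15 of 18 were measured. Of these, 13 lay above 0 and 2 below, with a median of 0.31. The 13 other members split 8 to 5 and had a median of 0.23, which became 0.01 without wild-type array 3. Without that array the enzymes' median was 0.23, again with 13 of 15 above 0, where 50.2% of all genes were. The counts depended on the scaling and on the prefix: 11 of 15 enzymes lay above 0 in the authors' deposited log2 values, within bo20 arrays 13 did, against 48.3% of all genes, and within the single bo12 pair 9 did, against 40.1%. For 2 of the 28 genes, Pmvk and Lss, the lowest mutant value lay above the highest wild-type value, and for 0 the order was the opposite. Over all genes 5.99% were higher without overlap and 8.35% lower. The members' share was thus near that of all genes in the higher direction, and no member was lower without overlap.

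**Figure D1:**
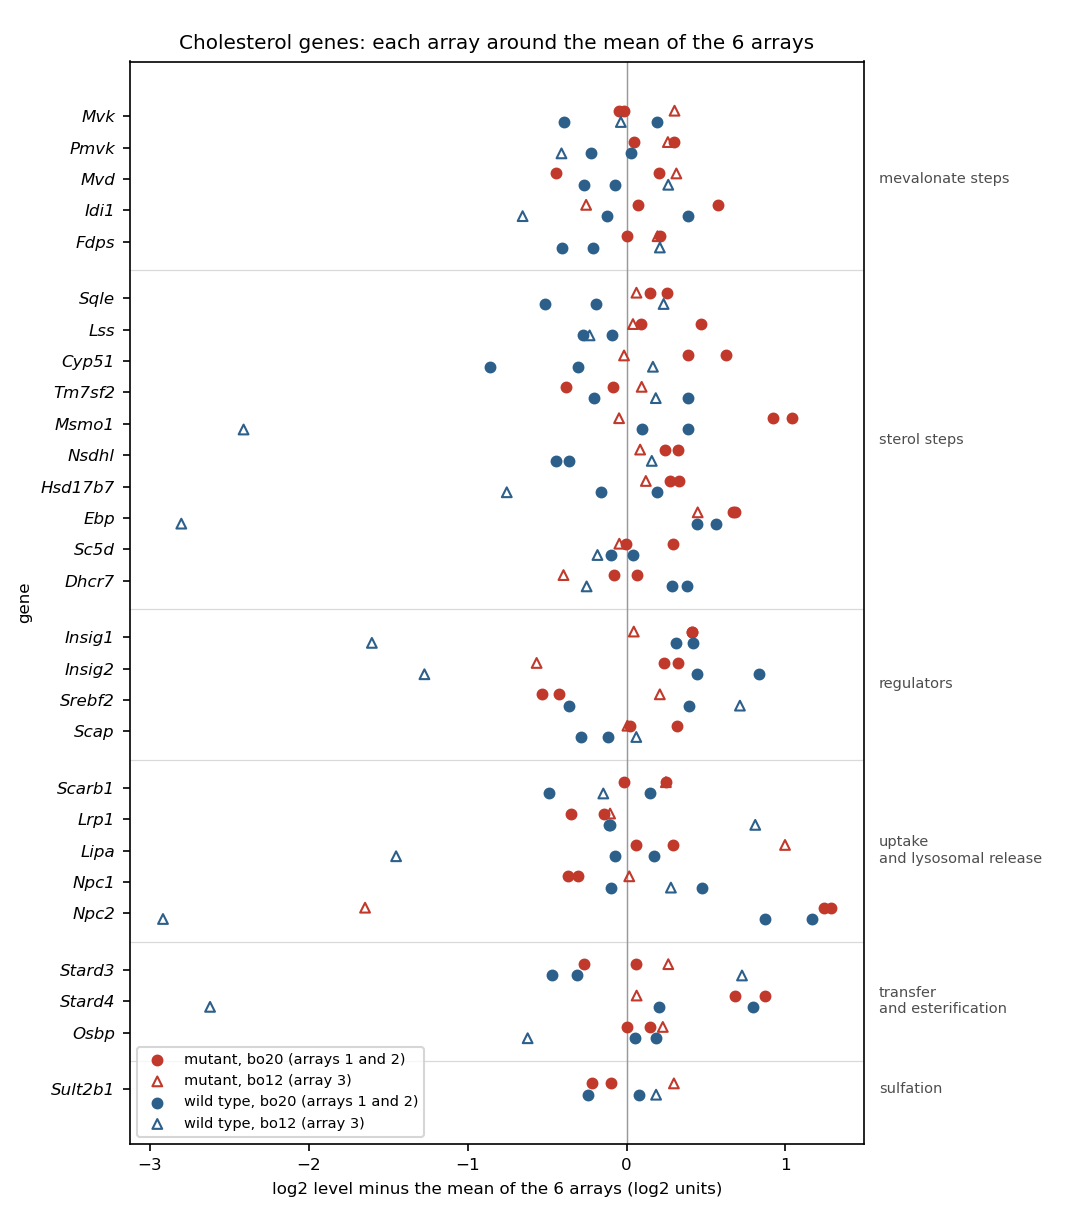
Log2 level of each of the 28 genes on every array, as the distance in log2 units from that gene's mean over the 6 arrays, with mutant arrays (red) drawn above wild-type arrays (blue) for each gene, filled circles for bo20 and open triangles for bo12. Most points lie within 1 log2 unit of the mean, while wild-type array 3 stands far to the left for Msmo1, Ebp, Insig1, Insig2, Lipa, Npc2 and Stard4.

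The mevalonate steps were measured for 5 of 7 genes and all 5 differences lay above 0, from 0.05 to 0.40, with 0 past the threshold. Pmvk, the kinase that phosphorylates mevalonate phosphate, read 8.39, 8.64 and 8.60 in mutant arrays 1 to 3 and 8.12, 8.37 and 7.93 in wild-type arrays 1 to 3. Every mutant value lay above every wild-type value, by a margin as small as that between 8.39 and 8.37. The fold was 1.32 (95% interval 0.931 to 1.88, limma adjusted p = 0.791), and the difference was 0.29 without wild-type array 3. Mvk, the first kinase of the branch, and Mvd, the decarboxylase that makes isopentenyl diphosphate, differed by 0.16 (SE 0.24) and 0.05 (SE 0.28). Idi1, the isomerase of the isoprenoid units, differed by 0.26 (SE 0.34) and was detected on 4 of 6 arrays. It stood at 0.00 without wild-type array 3, a value that sets the low bo12 mutant against bo20 wild types only. Within bo20 it was 0.19 and within bo12 0.40.

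Fdps, which joins these units into farnesyl diphosphate, was read by 2 probes that pointed apart. Its brighter probe (ILMN_1225730) read 12.36, 12.57 and 12.55 in mutants and 11.95, 12.14 and 12.56 in wild type, so that wild-type array 3 sat among the mutants while the other 2 wild-type values lay below all of them. The difference was 0.27 (SE 0.23), and 0.44 (SE 0.18) without wild-type array 3, which did not pass (limma adjusted p = 0.481). The dimmer probe (ILMN_1232741) gave -0.34 (SE 0.42), and 0.04 once wild-type array 3 was left out.

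The sterol steps, from squalene to cholesterol, were measured for 10 of 11 genes, 8 above 0 and 2 below, with a median of 0.42 and 0 past the threshold. Sqle, the squalene epoxidase and a rate-limiting step, had a bright probe (ILMN_2737163) at 11.72, 11.61 and 11.53 in mutants and 10.95, 11.27 and 11.70 in wild type. The groups overlapped through wild-type array 3 alone. The fold was 1.24 (95% interval 0.828 to 1.86, limma adjusted p = 0.791), and the difference of 0.31 was 0.51 without that array (limma adjusted p = 0.436). A second probe (ILMN_2600348) read 9.49, 9.65 and 8.98 in mutants and 7.86, 8.90 and 8.94 in wild type, without overlap, for a fold of 1.75 (95% interval 0.975 to 3.14).

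Lss, lanosterol synthase, which closes the sterol rings, read 8.57, 8.95 and 8.52 in mutants and 8.21, 8.38 and 8.25 in wild type. It was the only sterol step whose brightest probe separated the groups. Its fold was 1.32 (95% interval 0.931 to 1.87, limma adjusted p = 0.791), with a difference of 0.37 without wild-type array 3. Cyp51, the lanosterol demethylase, had the smallest p of the measured sterol steps when each was read by its brightest probe. It read 9.59, 9.83 and 9.19 in mutants and 8.35, 8.90 and 9.37 in wild type, so that mutant array 3 lay below wild-type array 3, while both bo20 mutants lay above both bo20 wild types. The fold was 1.58 (95% interval 0.938 to 2.67, limma adjusted p = 0.791), and the difference of 0.66 was 0.90 without wild-type array 3 (limma adjusted p = 0.344).

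Nsdhl, the dehydrogenase that helps to remove the methyl groups of lanosterol, was read by 4 kept probes, all with positive differences. They were 0.43 (SE 0.24), 0.41 (SE 0.24), 1.20 (SE 0.47) and 0.61 (SE 0.25), and 0.35 to 0.80 without wild-type array 3, with limma adjusted p = 0.791 for each over all arrays. On the probe with the largest difference (ILMN_2725402) mutants read 7.70, 7.92 and 6.80 and wild types 6.25, 7.08 and 5.48. Within each prefix the mutants were above the wild types, but mutant array 3 lay below wild-type array 2. Its probes thus pointed the same way, although 1 of them (ILMN_2594525) gave -0.07 within bo12.

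Promoter windows from RefSeq (build GRCm38.p6, 250 bases before to 50 bases after a gene's start) were available for 26 of the 32 members. Those of Pmvk, which has 2 windows, and Lss are shown because their brightest probes separated the groups, and those of Cyp51, Nsdhl and Insig1 because of the positive differences described. They were chosen after their values were seen. Capitals mark CCAAT and GGGCGG, the boxes known to bind NF-Y and Sp1, which act beside SREBP at sterol-responsive promoters, on either strand (ATTGG and CCGCCC are the same boxes read from the other strand).
Pmvk, chr3:89454291-89454590, plus strand: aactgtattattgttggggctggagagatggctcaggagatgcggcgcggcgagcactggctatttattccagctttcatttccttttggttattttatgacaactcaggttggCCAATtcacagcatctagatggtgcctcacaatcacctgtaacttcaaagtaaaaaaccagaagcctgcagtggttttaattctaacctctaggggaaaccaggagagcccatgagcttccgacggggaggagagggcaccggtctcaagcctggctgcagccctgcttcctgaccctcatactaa
Pmvk, chr3:89459321-89459620, plus strand: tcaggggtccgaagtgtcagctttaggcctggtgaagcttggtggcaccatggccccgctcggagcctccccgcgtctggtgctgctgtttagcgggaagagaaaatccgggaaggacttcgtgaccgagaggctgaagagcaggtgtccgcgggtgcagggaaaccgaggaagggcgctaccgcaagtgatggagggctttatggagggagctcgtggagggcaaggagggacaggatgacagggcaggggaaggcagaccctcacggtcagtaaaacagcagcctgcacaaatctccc
Lss, chr10:76531355-76531654, plus strand: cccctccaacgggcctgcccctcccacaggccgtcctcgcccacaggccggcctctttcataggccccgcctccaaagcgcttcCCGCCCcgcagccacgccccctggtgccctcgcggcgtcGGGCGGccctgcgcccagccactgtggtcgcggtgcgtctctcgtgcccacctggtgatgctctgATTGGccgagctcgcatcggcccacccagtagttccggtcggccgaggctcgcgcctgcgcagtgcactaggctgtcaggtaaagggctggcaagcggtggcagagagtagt
Cyp51, chr5:4104648-4104947, minus strand: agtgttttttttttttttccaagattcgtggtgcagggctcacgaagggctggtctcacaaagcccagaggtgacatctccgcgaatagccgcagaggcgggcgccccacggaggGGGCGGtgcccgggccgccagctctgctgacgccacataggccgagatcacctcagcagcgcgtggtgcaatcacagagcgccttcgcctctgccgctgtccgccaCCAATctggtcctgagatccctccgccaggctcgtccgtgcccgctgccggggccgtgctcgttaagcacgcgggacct
Nsdhl, chrX:72918271-72918570, plus strand: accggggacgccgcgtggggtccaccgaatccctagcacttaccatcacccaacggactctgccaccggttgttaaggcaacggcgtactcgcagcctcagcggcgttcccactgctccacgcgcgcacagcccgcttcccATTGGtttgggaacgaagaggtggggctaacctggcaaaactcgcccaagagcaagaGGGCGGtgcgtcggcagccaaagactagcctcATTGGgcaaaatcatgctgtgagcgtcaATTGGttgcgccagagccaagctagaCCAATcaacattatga
Insig1, chr5:28071162-28071461, plus strand: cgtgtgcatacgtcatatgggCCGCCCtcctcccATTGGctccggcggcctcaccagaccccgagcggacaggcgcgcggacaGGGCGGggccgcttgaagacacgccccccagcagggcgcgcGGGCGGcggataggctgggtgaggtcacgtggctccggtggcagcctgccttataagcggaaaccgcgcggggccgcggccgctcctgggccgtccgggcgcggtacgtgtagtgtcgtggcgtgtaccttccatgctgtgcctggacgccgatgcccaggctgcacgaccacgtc

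Of the windows shown, those of Lss, Cyp51, Nsdhl and Insig1 held both boxes, while 1 window of Pmvk held CCAAT alone and the other neither. CCAAT was found in a window of 22 of the 26 members (84.6%), compared with 42.8% of 8685 kept genes that have a window. GGGCGG was found for 24 of 26 (92.3%), compared with 67.9%. One exact form of the sterol regulatory element, TCACNCCAC with an A before it, was searched on both strands. It was in the windows of 0 of 26 members and of 0.196% of kept genes. The same letters without that A were searched afterwards, on seeing this result. This shorter form, which every match of the longer one contains, was found for Hmgcs1 and Stard3, 2 of 26 members (7.69%), compared with 1.44% of kept genes. The 26 members include Acat2, Hmgcs1 and Soat1, which are not among the kept genes, so the match of Hmgcs1 lies outside the set it is compared with. Over all 27025 genes with a window, kept or not, the share with the shorter form was also 1.44%. Members with several starts had several windows, 33 in all. These letter matches describe the windows only. Forms of the element with other letters were not searched, so the matches do not show which windows lack one.

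Msmo1 and Ebp had the largest differences of the sterol steps, and in both wild-type array 3 was far below the other arrays. Msmo1, a sterol methyl oxidase of the demethylation steps, read 10.75, 10.63 and 9.66 in mutants and 9.81, 10.10 and 7.30 in wild type. Its fold was 2.43 (95% interval 0.723 to 8.15), and its difference of 1.28 became 0.39 without wild-type array 3, a value that sets the low bo12 mutant against bo20 wild types only. Within bo20 it was 0.74 (SE 0.20), both mutants lying above both wild types. Ebp, the sterol isomerase, read 10.07, 10.05 and 9.83 in mutants and 9.95, 9.83 and 6.58 in wild type. Apart from wild-type array 3 its values lay close together, and its difference of 1.20 became 0.10 without that array. Neither passed in limma with all arrays (adjusted p = 0.791 for both).

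The remaining sterol steps differed by less. Hsd17b7, the ketosteroid reductase of the demethylation steps, stood at 0.48 (SE 0.28) with all arrays included and at 0.23 without wild-type array 3. Sc5d, the sterol desaturase, detected on 5 arrays, differed by 0.16 (SE 0.21). The 2 enzymes below 0 were both reductases. Dhcr7, which completes cholesterol in the last step, read 7.36, 7.51 and 7.04 in mutants and 7.82, 7.72 and 7.19 in wild type. Within each prefix the mutants were lower than the wild types, but the groups overlapped because both bo12 arrays were low. Its fold was 0.827 (95% interval 0.544 to 1.26, limma adjusted p = 0.793), and its difference was -0.46 without wild-type array 3 and 0.37 with median scaling of the arrays. Tm7sf2, a sterol reductase that acts earlier, differed by -0.25 (SE 0.25), and by 0.07 with median scaling.

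**Figure D2:**
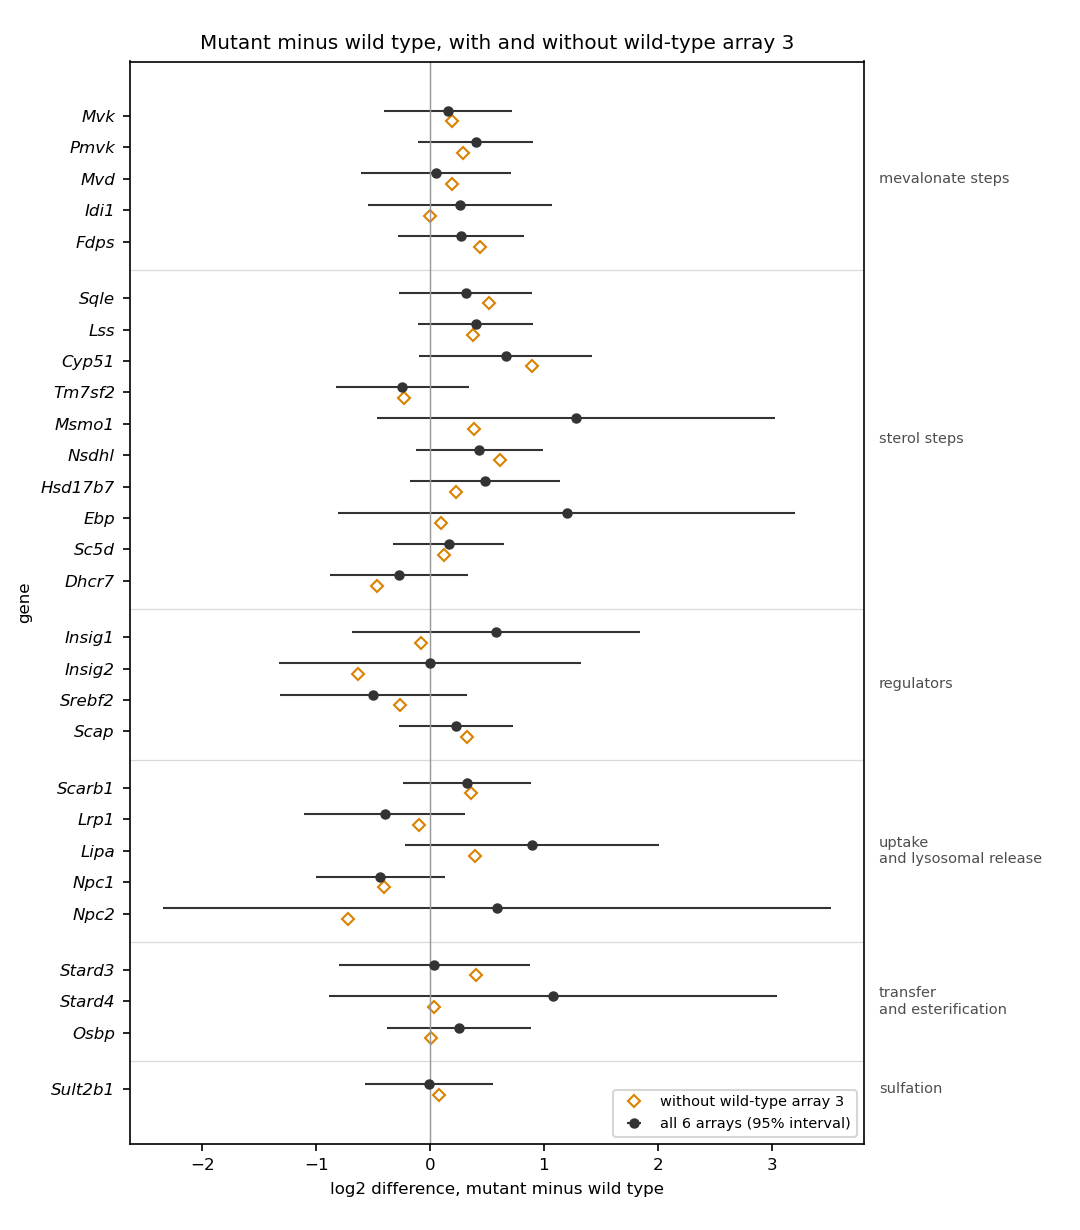
Log2 difference, mutant minus wild type, for the 28 genes by pathway role, over the 6 arrays (black circles with 95% intervals from limma) and with wild-type array 3 left out (orange diamonds). Every interval crosses 0, and Msmo1, Ebp, Stard4, Insig1 and Npc2 lie much closer to 0, or below it, without that array.

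Among the regulators 2 of 4 lay above 0 and 2 below, with 0 past the threshold. Srebf2, the master transcription factor of the pathway, read 7.95, 8.05 and 8.69 in mutants and 8.87, 8.12 and 9.19 in wild type on its brighter probe (ILMN_1223598). Within each prefix the mutant mean was lower by 0.50, yet the groups overlapped. The fold was 0.708 (95% interval 0.401 to 1.25, limma adjusted p = 0.791), and the difference was -0.26 without wild-type array 3 and 0.11 with median scaling. The other kept probe of Srebf2 (ILMN_1234082) gave -0.06 (SE 0.22). Scap, which carries the factor to the Golgi, differed by 0.23 (SE 0.21).

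Insig1, a retention protein that is itself switched on by SREBP, gave probes that disagreed in wild-type array 3. The brightest (ILMN_2895388) read 7.16, 7.16 and 6.80 in mutants and 7.06, 7.17 and 5.15 in wild type, a fold of 1.50 (95% interval 0.624 to 3.59, limma adjusted p = 0.793), with a difference of -0.08 without that array. A second (ILMN_2606693) read 6.31, 6.45 and 5.99 in mutants and 5.11, 5.53 and 5.56 in wild type, with no overlap. Its fold was 1.81 (95% interval 1.23 to 2.66), and its unadjusted p of 0.00826 was the smallest of the 43 member probes (limma adjusted p = 0.539). The last of the 3 (ILMN_1245272) read 6.29, 6.64 and 6.35 in mutants and 5.03, 5.89 and 6.50 in wild type, for a difference of 0.62 (SE 0.38). Without wild-type array 3 these last 2 probes stood at 0.98 and 1.01, and neither passed (limma adjusted p = 0.233 and 0.34). The deviation of wild-type array 3 from the mean of wild-type arrays 1 and 2 was -1.97, 0.24 and 1.04 on the 3 probes, a span of 3.01 log2 units for a single gene.

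Insig2, the other retention protein, pointed to lower values on its second probe (ILMN_2690256), which read 8.84, 8.94 and 8.65 in mutants and 9.06, 9.67 and 9.01 in wild type. This was the only member probe of the 43 whose mutant values all lay below the wild-type values, compared with 7.68% of all kept probes, while 6 lay above without overlap, compared with 5.63%. Its fold was 0.737 (95% interval 0.490 to 1.11, limma adjusted p = 0.791). Its brightest probe (ILMN_1216822) differed by -0.00 (SE 0.56), with both bo12 arrays below all bo20 arrays, and by -0.63 without wild-type array 3.

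**Figure D3:**
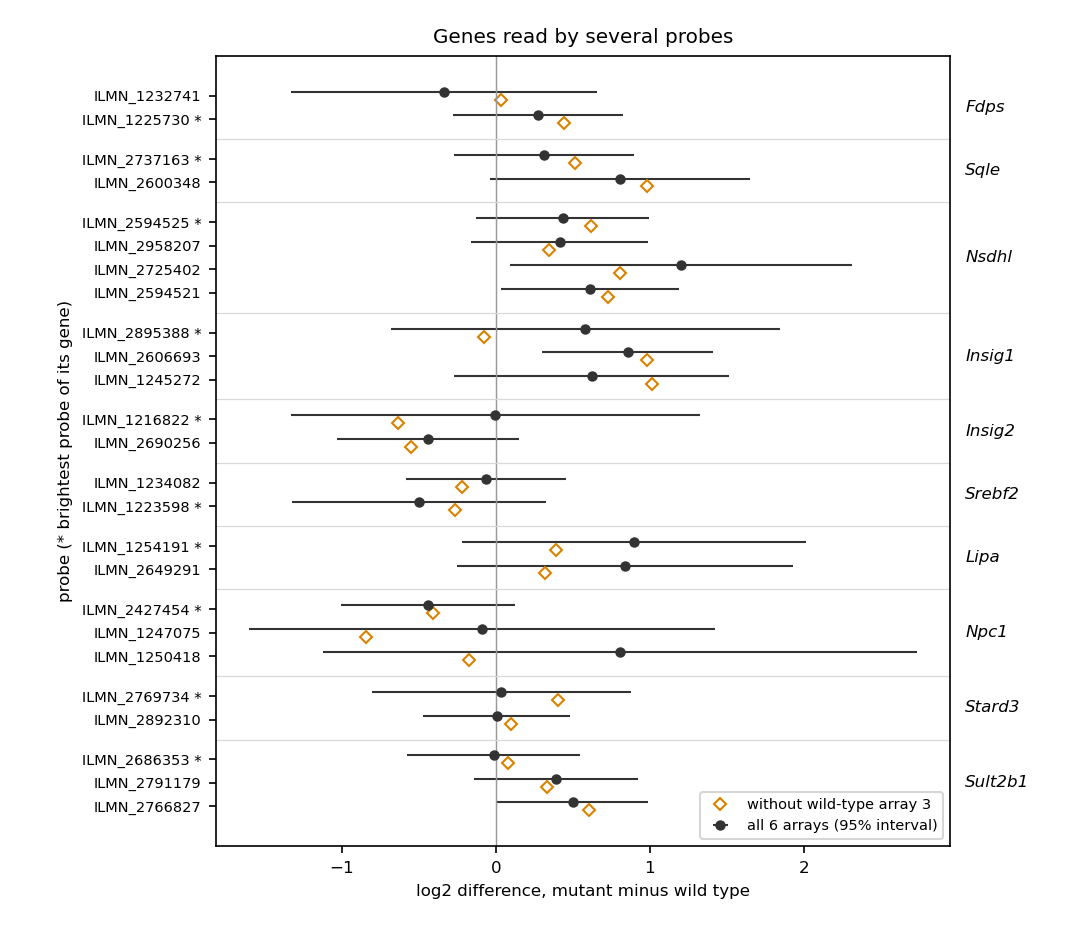
Log2 difference, mutant minus wild type, for each kept probe of the 10 genes read by several probes, over the 6 arrays (black circles, 95% intervals) and with wild-type array 3 left out (orange diamonds). The 4 probes of Nsdhl all lie above 0, whereas the 3 probes of Npc1 spread over 1.24 log2 units with all arrays.

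Genes of uptake and lysosomal release were measured for 5 of 5, of which 3 lay above 0 and 2 below, with 0 past the threshold. Lipa, the lysosomal lipase that frees cholesterol from its esters, had the smallest p of these genes and read 7.61, 7.38 and 8.32 in mutants and 7.49, 7.25 and 5.87 in wild type (ILMN_1254191). The bo20 values of both groups lay between 7.25 and 7.61, while mutant array 3 was the highest and wild-type array 3 the lowest of all. The fold was 1.86 (95% interval 0.861 to 4.04, limma adjusted p = 0.791), and its difference of 0.90 became 0.39 without wild-type array 3. The other Lipa probe gave 0.84 (SE 0.46) and 0.32.

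Npc2, which hands cholesterol to Npc1 inside the lysosome, differed far more between prefixes than between groups. It read 9.23, 9.28 and 6.35 in mutants and 9.16, 8.86 and 5.07 in wild type, so that both bo12 arrays lay far below the bo20 arrays. Within each prefix the mutants lay above the wild types, by 0.24 in bo20 and 1.27 in bo12. The difference of 0.59 had an SE of 1.24, and an SE of 0.26 with the prefix as a block, where it did not pass (limma adjusted p = 0.387). Without wild-type array 3, which leaves the low bo12 mutant with no bo12 wild type, it was -0.72. Npc1, the lysosomal membrane exporter, differed by -0.44 (SE 0.24) on its brightest probe, by -0.09 (SE 0.64) on a dimmer one (ILMN_1247075) and by 0.81 (SE 0.82) on another (ILMN_1250418). Without wild-type array 3 the 3 probes stood at -0.40, -0.84 and -0.18, all below 0. That subset again sets the bo12 mutant, low on the dimmer probes, against bo20 wild types only. Within bo20 the 3 probes stood at -0.53, -0.43 and 0.21, and within bo12 at -0.26, 0.60 and 2.00. Scarb1, a receptor for high-density lipoprotein that was detected on 5 arrays, differed by 0.32 (SE 0.24), and Lrp1, an endocytic receptor for lipoprotein remnants, by -0.40 (SE 0.30). Lrp1 stood at -0.10 without wild-type array 3, in which it was highest.

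Of the 4 genes of transfer and esterification 3 were measured, all above 0, with 0 past the threshold. Stard4, a soluble carrier of sterol between membranes, read 9.82, 10.002 and 9.20 in mutants and 9.34, 9.93 and 6.51 in wild type. As with Ebp, wild-type array 3 was far below the other 5, and the difference of 1.08 (SE 0.83) became 0.04 without it. Stard3, which tethers late endosomes and moves their sterol, differed by 0.04 (SE 0.36), and Osbp, which exchanges sterol for a phosphoinositide at the Golgi, by 0.25 (SE 0.27). With wild-type array 3 left out Stard3 stood at 0.41 (SE 0.21) and Osbp at 0.01 (SE 0.17).

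Sult2b1, the sulfotransferase that makes cholesterol sulfate in the upper epidermis, read 11.51, 11.38 and 11.90 in mutants and 11.36, 11.68 and 11.79 in wild type on its brightest probe (ILMN_2686353). The groups were interleaved, with a fold of 0.992 (95% interval 0.672 to 1.46, limma adjusted p = 0.988). A second probe (ILMN_2791179) gave 0.39 (SE 0.22). Its dimmest (ILMN_2766827) read 9.29, 9.13 and 9.11 in mutants and 8.52, 8.59 and 8.91 in wild type without overlap, for a fold of 1.41 (95% interval 1.01 to 1.99, limma adjusted p = 0.791). The labels and tables do not say which transcripts each probe reads.

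The bo20 and bo12 arrays were then compared, because several members changed place with the prefix. Among the 28 genes both bo12 arrays lay below all bo20 arrays for 7 and above for 3, where 12.9% of all genes were below and 21.2% above. The 7 were Idi1, Msmo1, Dhcr7, Insig1, Insig2, Npc2 and Stard4. Wild-type array 3 was over 1 log2 unit below the mean of wild-type arrays 1 and 2 for 7 of the 28, against 15.7% of all genes. Within bo20, with 2 mutant and 2 wild-type arrays, the largest differences were those of Cyp51 (1.09), Msmo1 (0.74), Nsdhl (0.69) and Sqle (0.55). None passed there in limma (adjusted p = 0.123, 0.197, 0.197 and 0.316), where 0.643% of all probes did. Within bo12, with 1 array of each group and no test, the same genes stood at -0.18, 2.36, -0.07 and -0.17.

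Whether a difference itself differed between the prefixes was tested with an interaction term in limma over all kept probes, an analysis added after the data were seen. It takes its spread from the bo20 arrays alone, since bo12 has 1 array a group. Ebp, Lipa, Stard4, Insig1 and Msmo1 passed on their brightest probes, 5 of 28, where 10.3% of all genes passed. In each of the 5 the difference was larger within bo12, the difference within bo20 minus that within bo12 being -1.60 for Insig1 and -3.08 for Ebp at the ends of the range, and wild-type array 3 was the lowest of the 6 arrays. The mean levels of the fibroblast and muscle lists were lowest on the same array, as given above. So were those of the basal, suprabasal and macrophage lists, but not for all of their genes. Of the basal genes Krt15, Itga6 and Col17a1 were lowest on that array, while Krt5 (13.31) and Itgb4 (10.94) were highest on it. Of the suprabasal genes only Dsc1 (4.51) was lowest on it, and Sbsn (13.23) was highest. Of the macrophage genes Csf1r and Adgre1 were lowest on it. Marker lists of melanocytes, endothelium, erythroid cells, adipocytes and hair follicle were not lowest there. Cyp51, whose difference was larger within bo20 by 1.27 (SE 0.41), did not pass (adjusted p = 0.0979).

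**Figure D4:**
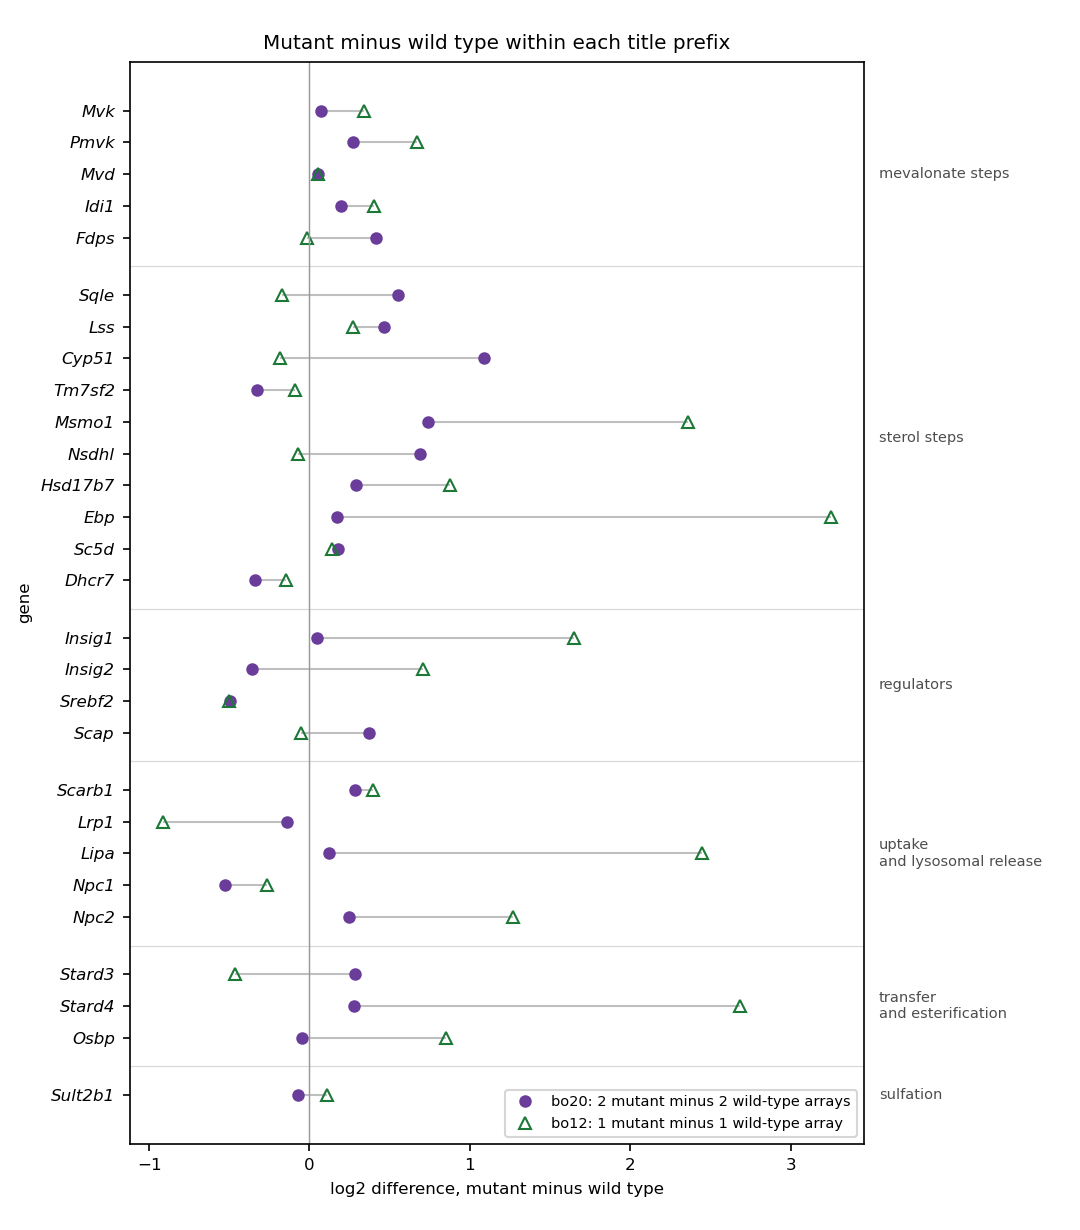
Log2 difference, mutant minus wild type, of the 28 genes within bo20 (filled circles, 2 arrays a group) and within bo12 (open triangles, 1 array a group), with a grey line joining the values of a gene. Ebp, Stard4, Lipa and Msmo1 stand far to the right within bo12, and Cyp51, Nsdhl and Sqle stand above 0 within bo20 and slightly below it within bo12.

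Leaving out wild-type array 3 or giving it less weight did not bring a member past the threshold. Without it the smallest adjusted p over the 43 member probes was 0.233, while 0.275% of all probes passed. With array weights, in which it had a weight of 0.112, the smallest was 0.0519, for the second Insig1 probe, and 0.703% of all probes passed. With the title prefix as a block the smallest was 0.171, for a Nsdhl probe (ILMN_2725402), and 0.261% of all probes passed. Without wild-type array 3 an unadjusted p under 0.05 was found for 4 of the 28 genes, all higher in mutants, namely Fdps, Sqle, Cyp51 and Nsdhl, where 5.25% of all genes were higher at that level and 4.18% lower.

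Other genes of cholesterol handling were listed by function: 38 were named, 27 had a named probe and 17 were kept. None of the 17 passed and 0 had an unadjusted p under 0.05 in limma, with 8 above 0 and 9 below and a median of -0.09. The 4 with the smallest p were Ch25h, which makes an oxysterol that restrains SREBP, at 0.67 (SE 0.38), Srebf1, the SREBP gene of fatty acid synthesis, at -0.51 (SE 0.30), Stard5, a sterol carrier, at 0.29 (SE 0.23), and Cyp27a1, a sterol hydroxylase, at -0.43 (SE 0.35). Their limma adjusted p was 0.791 for each on the brightest probes. Dimmer kept probes did not all point the same way. For Stard5 the other probe (ILMN_1227508) gave -0.26 (SE 0.19). For Cyp27a1 the others gave 0.54 (SE 0.26, ILMN_2960114) and -0.07 (SE 0.24, ILMN_2620326). Without wild-type array 3 the 17 genes split 13 above 0 to 4 below, with a median of 0.11.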

How the data were processed

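Bead arrays were run on 3 mutant and 3 wild-type samples, which the labels call biological replicates; where nothing says the litters differed, p-values measure the spread between these samples. The raw table holds bead summary intensities per probe, not normalized, as deposited by the authors; per the submitters' processing notes BeadStudio was used, its version not stated. A fraction that the authors deposited for every probe under the heading of a p-value nears 1 for bright probes, and was taken as 1 minus the detection p. The log2 table the authors deposited equals log2 intensity less each array's 75th percentile and each probe's median over the arrays (largest difference 2.26e-06); its direction is therefore known, and its column medians were -0.13, -0.13 and 0.01 in mutant arrays 1 to 3 and 0.26, -0.01 and 0.33 in wild-type arrays 1 to 3.

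Intensities were corrected with normexp (limma 3.58.1, nec, offset 16, negative controls inferred from the detection p), log2-transformed and quantile-normalized (R 4.3.3). Of 45281 probes, 18358 were detected on 3 or more arrays. Symbols came from the platform annotation, brought up to date through Entrez identifiers, accessions and older symbols with the gene table of GRCm38.p6; 35784 probes had 1 symbol, 0 had several and 9497 were unnamed. Of several kept probes the brightest represents a gene. Groups were compared with limma (lmFit, eBayes, two-sided, threshold 0.05), without covariates, and the fit was tested on simulated data. Precision is limited by 3 arrays a group. No array was a copy of another, the share of equal raw values being at most 0.517% for a pair.

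Members, lists and tests were chosen with earlier results of these data known. Values on every array are given for members whose groups did not overlap, for the smallest p of each role and for Sqle, Dhcr7, Srebf2, Insig1 and Sult2b1 (the rule also named Hmgcs1, which has no named probe); other per-array values were chosen after they were seen. Same-numbered samples deviated together from their group means (r across probes of 0.270, 0.462 and 0.538). Differently numbered samples were not compared, and arrays 1 and 2 of each group share a prefix, so these r do not establish pairs. Replicate numbers were taken as pairs only in an alternative fit with the replicate number as a block. Alternatives were other background corrections, scalings, filters, moderation, weights, blocks, subsets of arrays, each array left out, and the mean of a gene's probes.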

Additional observations from a re-analysis of the deposited data

Results flagged for a closer look

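The difference between mutant and wild type itself differed between title prefixes for 7 member probes, tested with the interaction of genotype and prefix in limma (adjusted p under 0.05 over all kept probes, of which 10.1% passed). The difference within bo20 minus that within bo12 was -3.08 for Ebp, -2.41 for Stard4, -2.32 and -1.70 for the 2 probes of Lipa, -1.80 for a Npc1 probe (ILMN_1250418), -1.62 for Msmo1 and -1.60 for Insig1 (ILMN_2895388). Their adjusted p ran from 0.000771 to 0.0459. The bo12 prefix holds 1 array of each group, among them wild-type array 3, which was the lowest of the 6 arrays for each of the 7 probes, so the array and the prefix cannot be told apart in this test.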

How the results depend on the processing

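No member passed the threshold under any setting tried, with adjusted p from 0.0875 upwards on the brightest probes. Over all kept probes 0 passed, compared with 1 without background correction, 6 in the authors' table, 129 with array weights, 48 with the title prefix as a block, 118 within bo20, 55 with wild-type array 3 dropped from the fit only (added after the data were seen) and 0 to 49 with 1 array left out, 49 being without wild-type array 3. With the replicate number as a block, 0 probes and 0 members passed and the medians stayed at 0.27 and 0.31, so this block changed no call. The members' median of 0.27 was 0.16 without background correction, 0.79 with median scaling, 0.15 with wild-type array 3 dropped from the fit only, and 0.16 to 0.31 with 1 array left out. That of the enzymes, 0.31, was 0.84 with median scaling, 0.48 in the authors' table, 0.14 within bo12, and 0.23 to 0.37 with 1 array left out.

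Of 557 alternative values of single genes, 513 kept their sign and 44, for 20 genes, did not; all 44 were short of the threshold or untested, and the cause was not tested. With median scaling, where the median of all genes was 0.43, Tm7sf2 stood at 0.0681, Dhcr7 at 0.37, Insig2 at 0.62, Srebf2 at 0.11, Lrp1 at 0.0828, Npc1 at 0.13 and Sult2b1 at 0.50. In the authors' table Idi1 stood at -0.13, Sc5d at -0.17, Insig2 at 0.25, Scarb1 at -0.0555 and Sult2b1 at 0.24. Within bo12 Fdps stood at -0.0145, Sqle at -0.17, Cyp51 at -0.18, Nsdhl at -0.0732, Insig2 at 0.71, Scap at -0.0558, Stard3 at -0.46 and Sult2b1 at 0.11, and within bo20 Osbp at -0.0453. With array weights Npc2 stood at -0.0367 and Sult2b1 at 0.0266. The mean of all probes gave -0.0314 for Fdps, 0.0936 for Npc1 and 0.29 for Sult2b1. With wild-type array 3 dropped from the fit only, Insig1, Npc2 and Sult2b1 stood at -0.0756, -0.73 and 0.0781. With 1 array left out, Mvd ranged from -0.0932 to 0.29, Insig1 from -0.0765 to 0.92, Insig2 from -0.63 to 0.41, Npc2 from -0.72 to 1.55, Stard3 from -0.19 to 0.41 and Sult2b1 from -0.16 to 0.0920. Idi1, Sc5d and Scarb1 read close to the lowest detected signal (4.77 to 4.90), which limits what their values show.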
